A study of Mus musculus with 3 samples.

Results

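The genes described here are 10 targets of the transcriptional regulators YAP and SRF, out of 43280 genes listed in each count table. They were taken by name from the tables. The 4 YAP targets are Cyr61 and Ctgf (the older symbols of Ccn1 and Ccn2), Ankrd1 and Amotl2. The 6 genes of the SRF and contractile group are Tagln, Acta2, Cnn1, Myl9, Tpm1 and Srf itself. All 10 were found in all 3 tables. They were listed with earlier results of these libraries known, so their counts and levels are descriptions.

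RNA came from mouse skeletal mesenchyme at E15.5, labelled as primary cells. The series calls it calvarial, meaning that it builds the vault of the skull. A single library was made for each of 3 genotypes at Ctnnb1, the beta-catenin gene. The control was fx/fx, with both alleles floxed and no Cre. The cKO was fx/fx with Dermo1-Cre, which is driven from the Twist2 locus and meant to act in mesenchymal cells and not in the others of the tissue. Which cells it recombined here was not measured. Twist2 itself had 21, 80 and 35 counts in the control, cKO and dTF-cKO. The dTF-cKO was fx/dm with Dermo1-Cre. What dm stands for is not stated. In mouse genetics, an allele of that name makes a beta-catenin that still joins cadherins at cell contacts but has lost its transcriptional output. The 3 groups share the floxed allele, and no library was fx/dm with Cre absent, so the effects of carrying dm and of recombination cannot be told apart. Whether embryos were pooled is not given in the sources used here. With 1 library per genotype, no difference below has a replicate check and no p-value was computed. Intervals cover counting error only, since PCR copies of 1 molecule are not told apart here.

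YAP and its relative TAZ are co-activators that enter the nucleus when cells spread or are under tension and when the Hippo kinases are inactive, and they bind DNA through TEAD factors. SRF binds a DNA element called the CArG box. Its co-activators of the myocardin family are held by unpolymerised actin, so that SRF output follows the state of the actin cytoskeleton. In bone-forming tissue both systems are known as readouts of mechanical load and cell shape, and the smooth muscle genes among their targets also mark vessel walls and myofibroblasts.

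The promoter sequences are shown because the members are grouped by the factor said to control them. RefSeq promoters on GRCm38.p6 were matched for 8 members. Ctgf and Tagln were not matched. The 250 bases before each start were searched on both strands for the CArG box and for GGAATG, the core of TEAD sites. These motifs do not overlap each other in the sites below, and a match is a description of letters. Only exact CArG boxes (CC, a run of A or T letters, then GG) were counted. Near matches were left out, such as ccctatatgg and ccttgtttgg in the Acta2 window. Among 32851 promoter windows of the same length, 1.47% held a CArG box and 12.6% held GGAATG. The upstream window of Cyr61 (chr3:145649986-145650235, minus strand) held 1 TEAD core, read on the opposite strand from 103 bases before the start, and that of Srf (chr17:46556163-46556412, minus strand) held 2 CArG boxes, which begin 82 and 62 bases before the start. Both windows are given 5′ to 3′ on the gene's strand, with the motif in capitals.
Cyr61: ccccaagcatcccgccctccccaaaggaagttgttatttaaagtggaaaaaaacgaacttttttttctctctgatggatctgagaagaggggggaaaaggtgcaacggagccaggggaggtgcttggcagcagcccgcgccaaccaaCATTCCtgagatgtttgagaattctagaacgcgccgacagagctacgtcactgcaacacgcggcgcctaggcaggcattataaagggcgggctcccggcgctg
Srf: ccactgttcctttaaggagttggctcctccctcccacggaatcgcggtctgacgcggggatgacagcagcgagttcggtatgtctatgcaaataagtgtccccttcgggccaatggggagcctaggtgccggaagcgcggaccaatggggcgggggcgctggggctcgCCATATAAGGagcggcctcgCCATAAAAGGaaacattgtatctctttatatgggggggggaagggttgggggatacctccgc

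The other matches are given as 30-base sites, again 5′ to 3′ on the gene's strand with the motif in capitals. They allow a comparison of members with like motifs and unlike expression. The Amotl2 site (chr9:102717727-102717756), the Acta2 site (chr19:34255502-34255531), the Tpm1 site (chr9:67049252-67049281) and the 2 Ankrd1 sites (chr19:36120037-36120066 and chr19:36119950-36119979) hold a TEAD core. The Myl9 site (chr2:156775293-156775322) holds a CArG box.
Amotl2: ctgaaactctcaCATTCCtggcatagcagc
Acta2: gagcagaacagaGGAATGcagtggaagaga
Tpm1: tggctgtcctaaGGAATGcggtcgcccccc
Ankrd1 first: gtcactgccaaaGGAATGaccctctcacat
Ankrd1 second: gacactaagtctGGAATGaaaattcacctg
Myl9: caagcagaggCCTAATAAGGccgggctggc

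Neither motif was found in the 250 bases before Cnn1. RefSeq and GENCODE place several starts differently: 250, 217, 193 and 136 bases of the windows of Ankrd1, Acta2, Tpm1 and Amotl2 lie in exons annotated by GENCODE.

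Libraries held 2678457 to 3634819 counts. Levels are given as CPM, counts scaled to a common library size with TMM factors, and a gene counted as measured at a mean of 5 CPM or more across libraries. This kept 12108 genes. Of the 10 members 9 were measured. In the order control, cKO and dTF-cKO, which all series of 3 values below follow, Ctnnb1 itself stood at 1026, 745 and 442 CPM, an order that scaling on stromal genes, described further on, turned for the dTF-cKO (log2 difference from the control 0.33). The labelled tissue was checked with 13 markers of skeletal mesenchyme and osteoblasts. Their summed level was 195556, 48974 and 11799 CPM, with no marker at 0 in any library. Col1a1 and Col1a2 held 114625 and 64364 CPM of the control sum, so the sums largely follow collagen genes. Gene by gene, 6 of the 13 were at least 2-fold lower in the cKO than in the control and 0 higher (median log2 difference -0.91). The 14 epidermal markers summed to 149, 25135 and 13933 CPM, and 1 of them was at 0 in the control. These sums do not rank the Cre-carrying libraries gene by gene. With the dTF-cKO set against the cKO, 4 markers were at least 2-fold higher and 4 lower (median log2 difference 0.36). Krt10 and Krt1 had 6947 and 5869 CPM for cKO, against 322 and 36.4 for dTF-cKO. Krt5 and Cdh1 ran the other way, with 2037 and 207 CPM for cKO against 4524 and 894. Xist, the transcript of the inactive X chromosome, had 1233, 0 and 2 counts, while 4 Y-linked genes summed to 0, 362 and 444 counts. Epidermal and skeletal marker levels, sex-linked transcripts and genotype therefore differed together and cannot be told apart with these libraries.

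The YAP targets differed among themselves. Cyr61, a secreted matricellular protein of the CCN family (ENSMUSG00000028195.4, chromosome 3 from 145646976 to 145649981, minus strand of mm10), had 224, 348 and 2731 counts. These correspond to 62.7, 123 and 976 CPM. The dTF-cKO library stood far above the other two. The ratio of dTF-cKO to control was 15.6 (exact conditional 95% interval 13.6 to 17.9) and that of dTF-cKO to cKO was 7.93 (7.09 to 8.89). The cKO exceeded the control as well, by 1.96-fold (1.66 to 2.33), just short of the 2-fold difference used as the rule for calling a gene higher or lower. In bulk tissue more cells of a type and more RNA per cell cannot be told apart, here or in the results below.

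Amotl2, an angiomotin-like protein that binds YAP at cell junctions and is itself a YAP target (chromosome 9, 102716672 to 102733418, plus strand), had 335, 395 and 1729 counts. Its levels were 93.7, 139.7 and 617.8 CPM. Again only the dTF-cKO library was far from the rest. Relative to the control the cKO was at 1.49 (1.29 to 1.73) and the dTF-cKO at 6.59 (5.86 to 7.43), and the ratio of dTF-cKO to cKO was 4.42 (3.96 to 4.94).

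Ctgf, the close relative of Cyr61 and one of the most used YAP readouts (chromosome 10, 24595442 to 24598683, plus strand), did not stand apart in any library. It had 295, 249 and 284 counts, or 82.5, 88.1 and 101 CPM. Relative to the control the cKO was at 1.07 (0.898 to 1.27) and the dTF-cKO at 1.23 (1.04 to 1.45). Ankrd1, a nuclear ankyrin repeat protein of striated muscle and stretched cells (chromosome 19, 36111961 to 36120099, minus strand), was barely detected, with 3, 1 and 1 counts. All 3 values were at or under the 3 counts that a count of 0 allows, so no fold is given.

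**Figure D1:**
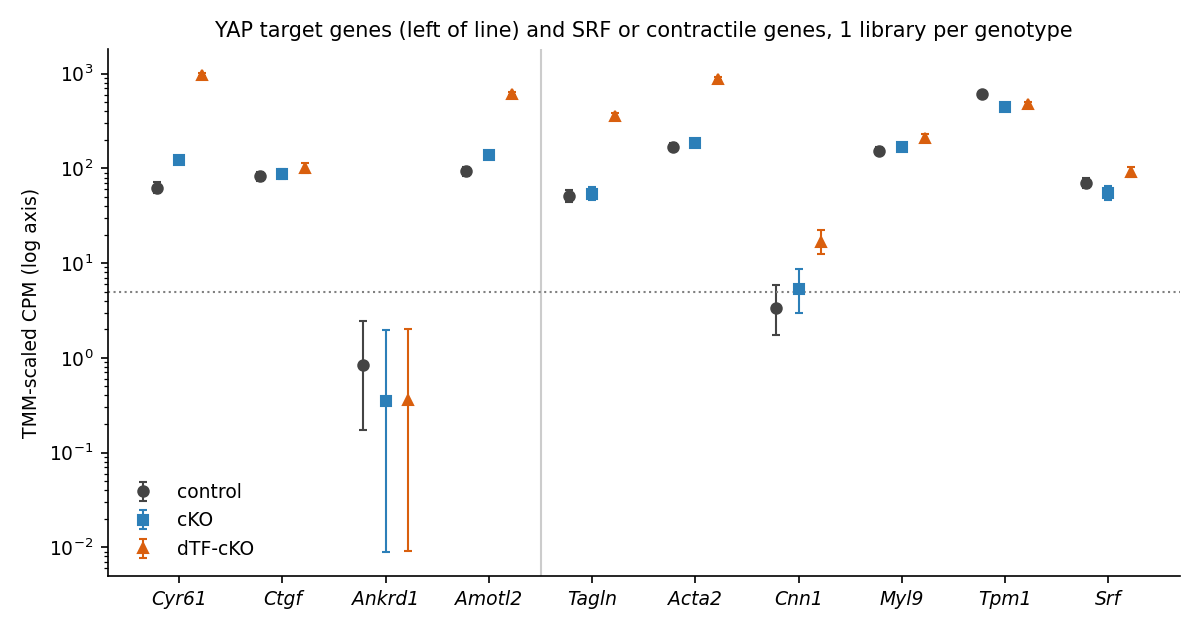
Level of each of the 10 genes in each library, as TMM-scaled CPM on a log axis. Points are single libraries (circle, control; square, cKO; triangle, dTF-cKO), bars are exact Poisson 95% intervals, and the dotted line is the floor of 5 CPM. The triangle lies far above the other 2 points for Cyr61, Amotl2, Tagln, Acta2 and Cnn1, and near them for Ctgf, Myl9, Tpm1 and Srf.

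The contractile group split in the same library. Tagln, which encodes the actin-binding protein SM22 of smooth muscle (chromosome 9, 45929619 to 45936058, minus strand), had 184, 153 and 1002 counts, or 51.5, 54.1 and 358 CPM. The control and cKO were alike within counting error, with a ratio of 1.05 (0.843 to 1.31), and the dTF-cKO was 6.96-fold above the control (5.94 to 8.18). Tagln overlaps Pcsk7 on the other strand, and the strand setting of the counting is not given. Pcsk7 had 103, 90 and 68 counts, fewer in the dTF-cKO than in the other two.

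Acta2, the smooth muscle actin of vessel walls and myofibroblasts (chromosome 19, 34241090 to 34255590, minus strand), had 605, 528 and 2482 counts, or 169, 187 and 887 CPM. The ratio to the control was 1.104 in the cKO (0.98 to 1.24) and 5.24 in the dTF-cKO (4.79 to 5.74). Muscle actins have similar coding sequences, and how reads shared by Acta2 and Actg2 were assigned is not given. Cnn1, a calponin of differentiated smooth muscle (chromosome 9, 22099216 to 22109630, plus strand), had 12, 15 and 47 counts, or 3.36, 5.31 and 16.8 CPM. The dTF-cKO was 5.003-fold above the control (2.61 to 10.4). Cnn1 was under the floor in the control and near it in the cKO, and its mean passed largely through the dTF-cKO library in which it was high.

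Myl9, the regulatory myosin light chain of smooth muscle and non-muscle cells (chromosome 2, 156775420 to 156781658, plus strand), lay close together in the 3 libraries at 547, 472 and 592 counts, or 153, 167 and 212 CPM. The ratio to the control was 1.09 in the cKO (0.963 to 1.24) and 1.38 in the dTF-cKO (1.23 to 1.56). Tpm1, a tropomyosin that lies along actin filaments (chromosome 9, 67022590 to 67049406, minus strand), was highest in the control. It had 2191, 1255 and 1335 counts, or 613, 444 and 477 CPM, with a ratio to the control of 0.724 in the cKO (0.675 to 0.777) and 0.778 in the dTF-cKO (0.727 to 0.833). Tpm1 is also a gene of skeletal muscle. The 15 skeletal muscle markers summed to 2107, 350 and 13.9 CPM, with 3 of them at 0 in the last, and their part in the Tpm1 level was not tested.

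Srf itself (chromosome 17, 46548329 to 46556175, minus strand) had 250, 156 and 258 counts, or 69.9, 55.2 and 92.2 CPM. It was 1.32-fold above the control in the dTF-cKO (1.103 to 1.58) and 1.27-fold below it in the cKO (1.03 to 1.56). Set against the cKO, the dTF-cKO was at 1.67 (1.36 to 2.05), under the 2-fold rule. The gene for the factor thus differed far less between libraries than Tagln, Acta2 and Cnn1 did.

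**Figure D2:**
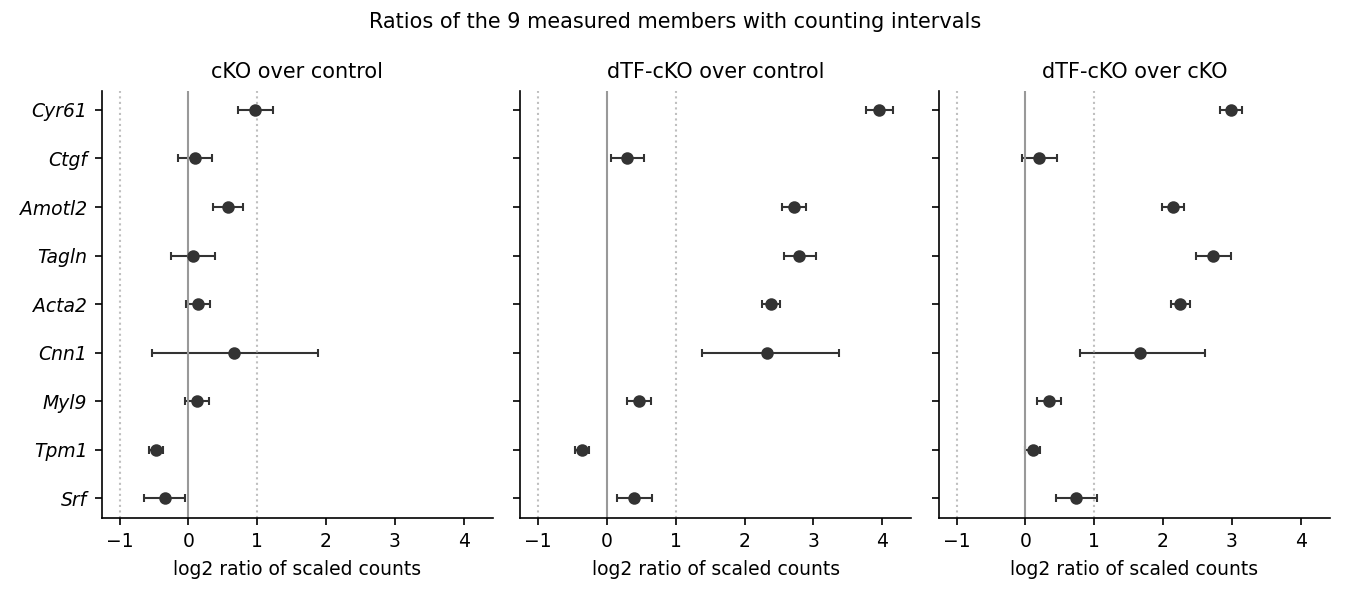
Log2 ratio of scaled counts for the 9 measured members in the 3 comparisons, with exact conditional 95% counting intervals as bars. Dotted lines mark 2-fold differences. In the left panel every point lies inside those lines, and in the other two 5 points lie beyond the upper line and 4 lie inside it.

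Counted over the 9 measured members, 0 were at least 2-fold higher and 0 at least 2-fold lower in the cKO than in the control. Over all measured genes 9.66% were higher and 6.78% lower. Library totals as the scaling put Cyr61 past the line, with a log2 difference of 1.07 in place of 0.97. With Cnn1 among them, 5 members were higher in the dTF-cKO against the control and 0 were lower, beside 19.5% of all measured genes higher and 20.9% lower. In the dTF-cKO against the cKO the same 5 members, Cyr61, Amotl2, Tagln, Acta2 and Cnn1, were higher and 0 were lower, against 14.5% and 20.5% of all genes. Cnn1 entered these counts largely through the library in which it was high. At a floor of 20 CPM, which it does not pass, 4 of the other 8 members were higher and 0 lower in each comparison of the dTF-cKO. The comparisons share libraries, so these counts do not support each other. Against the control, the median log2 difference of the 9 members was 0.13 for cKO and 2.12 for dTF-cKO, where the medians over all measured genes were 0.06 and 0.06. Between the Cre-carrying libraries it was 1.55, against 0.01 over all genes. Cnn1 itself sits at both dTF-cKO medians. Without it, at the floor of 20 CPM, the medians were 1.43 against the control and 1.44 against the cKO, and they fell between the 4 higher members and the other 4, where no member lay.

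The place of each member among all genes does not depend on the scaling. Ordered by the difference between dTF-cKO and control, Cyr61 had 97.4% of the 12108 measured genes below it. Tagln had 95.5%, Amotl2 95.3%, Acta2 94.3% and Cnn1 93.3%. Myl9, Srf and Ctgf had 64.3%, 62.0% and 58.3%, and Tpm1 35.9%. In the cKO against the control, Cyr61 had 89.9% of genes below it, Amotl2 81.5% and Cnn1 81.4%, while Ctgf, Tagln, Acta2 and Myl9 stood between 51.2% and 56.9%. Srf and Tpm1 had 22.2% and 16.8%.

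The size of these differences depended on the scaling. The 5 higher members passed 2-fold in both comparisons of the dTF-cKO under all 8 settings of scaling and prior count tried. For Cyr61 the log2 difference of dTF-cKO minus control ranged from 3.40, when 16 housekeeping genes were set to a median of 0, to 5.49, when 27 genes of dermis, meninges and endothelium were set to a median of 0 (called the stroma scaling here). Acta2 ranged from 1.84 to 3.93 under the same 2 scalings. The stroma scaling moved the median of all measured genes by 1.54 in that comparison and the housekeeping scaling moved it by -0.55. Under the stroma scaling Ctgf, Myl9, Tpm1 and Srf also passed 2-fold, at 1.84, 2.01, 1.18 and 1.94, where the median over all genes was 1.597. Under the housekeeping scaling Ctgf, Myl9 and Srf turned to -0.25, -0.08 and -0.15.

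**Figure D3:**
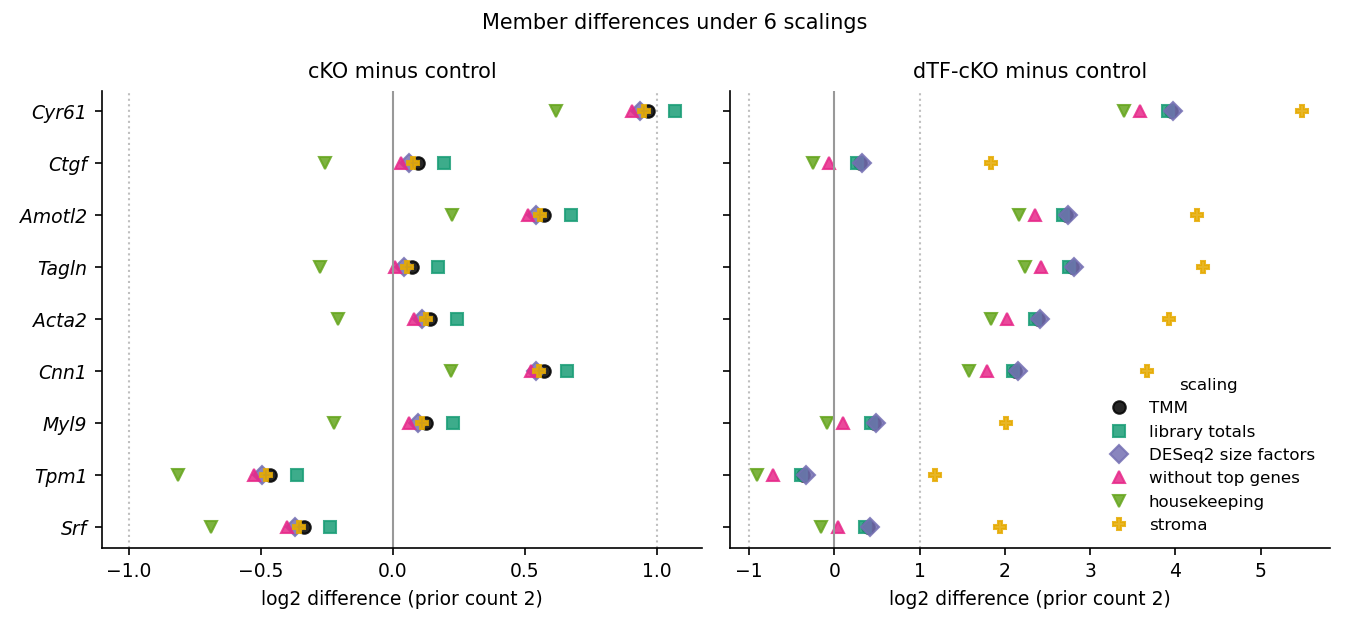
Log2 difference of the 9 measured members under 6 ways of scaling the libraries, with cKO minus control on the left and dTF-cKO minus control on the right; the x axes differ in range. Dotted lines mark 2-fold differences. In the right panel Cyr61, Amotl2, Tagln, Acta2 and Cnn1 lie beyond the upper line under all 6 scalings, and the other 4 genes pass it only under the stroma scaling.

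Ratios of 2 members within a library need no scaling. The pairs with Ctgf or Myl9 given here set members already seen to be higher in the dTF-cKO against members that were not. Their intervals are therefore no separate support for that difference. Cyr61 had 0.759, 1.398 and 9.62 counts for each count of Ctgf. The ratio of these ratios, dTF-cKO to control, was 12.7 (Woolf 95% interval 10.2 to 15.7). For Amotl2 against Ctgf it was 5.36 (4.39 to 6.55). Tagln had 0.336, 0.324 and 1.69 counts per count of Myl9, a 5.03-fold difference between dTF-cKO and control (4.14 to 6.12). Acta2 had 1.106, 1.119 and 4.19 per count of Myl9. Within each group of targets the members thus differed unequally from the control in the dTF-cKO, whatever the scaling. Tagln and Acta2, both high in the dTF-cKO, kept a closer ratio, with 0.304, 0.290 and 0.404 counts of Tagln per count of Acta2.

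**Figure D4:**
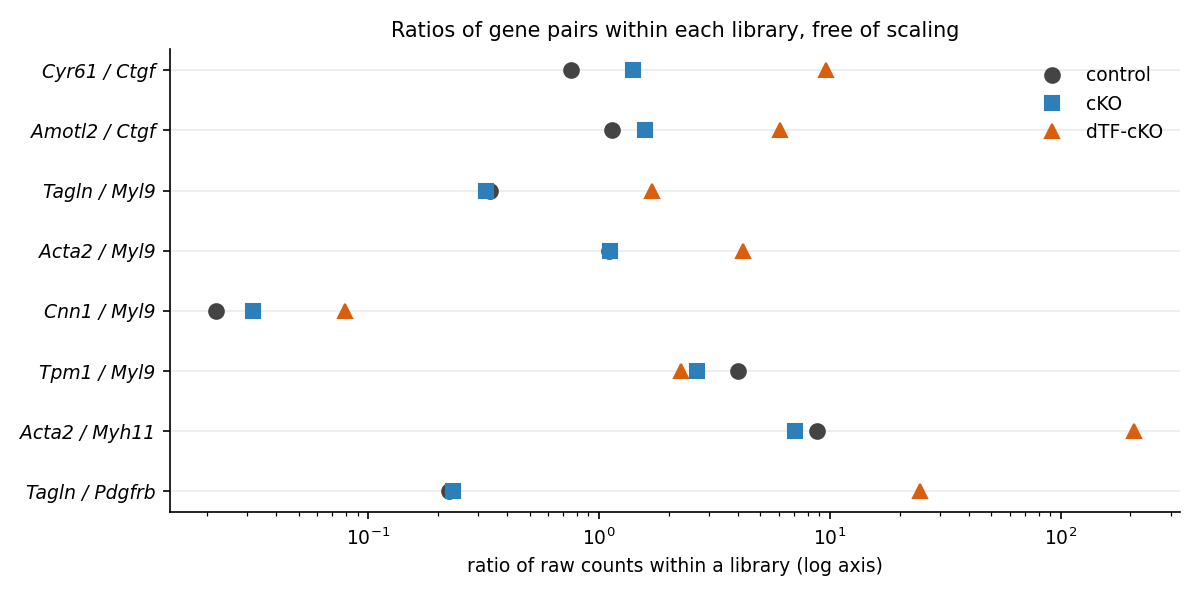
Ratio of raw counts of gene pairs within each library, on a log axis (circle, control; square, cKO; triangle, dTF-cKO). Control and cKO lie close together for Tagln and Acta2 against Myl9, at 0.336 and 0.324 and at 1.106 and 1.119, while the dTF-cKO lies at 1.69 and 4.19; the last rows set Acta2 and Tagln against the vessel wall genes Myh11 and Pdgfrb.

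Per length of annotated exon, given as RPKM (CPM per kilobase), the order of the members differed between libraries. In the control Myl9 was the most abundant at 132 RPKM, followed by Tpm1 at 94.5 and Acta2 at 77.1. Cyr61, Ctgf, Tagln and Srf followed between 24.2 and 31.03 RPKM, and each overlapped its neighbour in counting interval. Amotl2 stood at 14.9, Cnn1 at 1.23 and Ankrd1 at 0.291. In the cKO the first 3 were Myl9 at 143.7, Acta2 at 85.1 and Tpm1 at 68.5 RPKM, with Cyr61 next at 60.97, overlapping Tpm1. In the dTF-cKO Cyr61 led at 483 RPKM and Acta2 was next at 404. Myl9 at 182 and Tagln at 180 did not differ beyond their intervals. Amotl2 followed at 98.2, Tpm1 at 73.6, Ctgf at 35.5 and Srf at 31.9, the last pair overlapping. Cnn1 and Ankrd1 were again last, at 6.14 and 0.124.

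Most listed smooth muscle and pericyte markers lay in the opposite direction to Acta2, Tagln and Cnn1 in the dTF-cKO. Actg2, a smooth muscle actin outside that list, was 5.32-fold above the control there. Of 11 measured markers in a list that leaves the members out, 9 stood at least 2-fold below the control in the dTF-cKO and 0 above it, with a median log2 difference of -3.22. Under the stroma scaling the lower markers numbered 6 and the higher ones 2, the median was -1.67, and Myh11 was at -0.47. The genes that set this scaling include Pdgfrb, so the scaling is not independent of this marker list. Pdgfrb, the receptor that holds pericytes on vessels, was 15.7-fold lower (11.5 to 22.1). Cspg4, the pericyte proteoglycan NG2, was 39.5-fold lower (22.9 to 74.6). Of the 13 skeletal mesenchyme markers, 12 were lower as well and 0 higher, with a median of -3.37. Under the stroma scaling 10 of them were lower and 1 higher. Col3a1 and Pdgfra are both in this list and among the genes that set the scaling, so again the scaling is not independent. The part of mesenchymal cells in the Pdgfrb and Cspg4 levels was not tested. Rgs5 and Kcnj8, other pericyte genes, had 138 and 79 control counts, against 10 and 5 in the dTF-cKO. Myh11, the myosin heavy chain of differentiated smooth muscle, had 69, 75 and 12 counts, and Myocd, the smooth muscle co-activator of SRF, had 9, 4 and 0. Notch3 and Mcam, vessel wall genes also found in other cells, had log2 differences of 0.42 and 0.13. The summed level of the 13 listed genes was 1055, 1117 and 426 CPM, with 1 gene at 0 in the last. Acta2 had 8.77, 7.04 and 206.8 counts per count of Myh11, and the last ratio was 23.6-fold that of the control (12.7 to 43.8). Tagln had 0.223, 0.232 and 24.4 counts per count of Pdgfrb.

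In the cKO against the control, the same marker list had 2 genes higher and 2 lower, with a median of 0.32. Under the housekeeping scaling it had 0 higher and 3 lower, with a median of -0.03. The members Acta2 and Tagln lay within counting error of the control with TMM scaling. The dTF-cKO set against the cKO had 0 markers higher and 8 lower, with a median of -2.77 (3 higher and 6 lower under the stroma scaling). The higher pair in the cKO was Rgs5 at 2.15-fold (1.74 to 2.68) and Kcnj8 at 2.43-fold (1.84 to 3.24), which under the housekeeping scaling had log2 differences of 0.74 and 0.91.

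Other YAP targets, from a published signature with the members left out, were called in both directions with TMM scaling. Of 17 measured, 3 were at least 2-fold higher and 0 lower in the cKO, with a median of 0.11. In the dTF-cKO against the control 6 were higher and 3 lower, with a median of -0.12. The stroma scaling gave 13 higher and 0 lower with a median of 1.42, and the housekeeping scaling 4 higher and 6 lower with a median of -0.66. F3, tissue factor, had 25, 144 and 350 counts, so that the cKO was 7.28-fold (4.74 to 11.6) and the dTF-cKO 17.9-fold (11.9 to 28.0) above the control. Gadd45b, a stress-inducible gene, had 109, 93 and 758 counts, 8.88-fold higher in the dTF-cKO (7.26 to 10.96). Nuak2, a kinase related to AMPK, and Nt5e, the ecto-nucleotidase CD73, were higher in both, at 3.52-fold and 2.53-fold in the cKO and 6.75-fold and 5.30-fold in the dTF-cKO. Under the housekeeping scaling Nt5e was just under the rule in the cKO, at 0.96. The 3 lower ones in the dTF-cKO were Ccdc80, Igfbp3 and Dock5, with log2 differences of -1.89, -1.34 and -1.23, which became -0.35, 0.20 and 0.31 under the stroma scaling. Igfbp3 and Dock5 fall outside the rule for naming genes and were chosen after their values were seen. Between the Cre-carrying libraries 4 were higher and 2 lower in the dTF-cKO, the lower pair being Ccdc80 and Rbms3 at -1.61 and -1.17 (0.16 and 0.60 under the stroma scaling). The stroma scaling gave 14 higher and 0 lower there, and the housekeeping scaling 1 higher and 4 lower.

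The next list holds genes of the Hippo pathway itself. Of 19 measured, 3 were higher and 0 lower in the cKO than in the control (median 0.09), or 3 higher and 2 lower under the housekeeping scaling (median -0.26). In the dTF-cKO 7 were higher and 1 lower (median 0.73). The stroma scaling gave 17 higher and 0 lower there, and the housekeeping scaling 4 higher and 2 lower (median 0.19). Yap1 had 678, 530 and 673 counts and ratios to the control of 0.989 (0.881 to 1.11) and 1.27 (1.14 to 1.41). It is given as the gene of YAP itself, outside the naming rule. Wwtr1, which encodes TAZ, had 412, 275 and 606 counts and was 2.23-fold higher in the dTF-cKO than in the cKO (1.93 to 2.58), with a log2 difference of 1.15 that was 0.66 under the housekeeping scaling. Wwc1, the Hippo activator KIBRA, was 4.14-fold (3.10 to 5.60) and 11.1-fold (8.49 to 14.6) above the control in the cKO and dTF-cKO. Vgll3, a cofactor of TEAD, was 7.18-fold and 7.56-fold above it, and Tead4 3.12-fold and 6.39-fold. Tead3 was 3.17-fold above the control in the dTF-cKO (2.66 to 3.79). The lower one was Tead2 at -1.60 (-0.05 under the stroma scaling), named after its value was seen. Tead4 and Vgll3 had 15 and 25 counts in the control, and epidermal markers were higher in the same libraries; the part of epidermal cells in these values was not tested. Between the Cre-carrying libraries 4 of the 19 were higher in the dTF-cKO and 0 lower. None of those 4 calls held under the housekeeping scaling, with 0 higher and 2 lower and a median of -0.09, and the stroma scaling gave 17 higher and 0 lower.

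None of the SRF partner factors was 2-fold higher in either Cre-carrying library with TMM scaling. Of 5 measured, 0 were higher and 0 lower in the cKO than in the control, and 0 were higher and 1 lower in the dTF-cKO, where the stroma scaling gave 4 higher and 0 lower. Mkl1, the myocardin-related co-activator MRTF-A, had 243, 166 and 201 counts and ratios to the control of 0.864 (0.705 to 1.06) and 1.06 (0.872 to 1.28). Elk3 is a ternary complex factor that binds beside SRF and is abundant in endothelium. It stood 3.37-fold below the control in the dTF-cKO (2.65 to 4.33). Its log2 difference of -1.73 there was -0.19 under the stroma scaling. Endothelial genes help set that scaling, so it is not independent for a gene abundant in endothelium. The 11 endothelial markers summed to 978, 1451 and 291 CPM, and their part in the Elk3 level was not tested.

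The remaining cytoskeletal and smooth muscle targets of SRF were called in both directions with TMM scaling. Of 19 measured, 0 were higher and 2 lower in the cKO (median -0.23), and 3 were higher and 4 lower in the dTF-cKO against the control (median -0.18). The stroma scaling gave 12 higher and 1 lower in the latter (median 1.36), and the housekeeping scaling 2 higher and 8 lower (median -0.73). Fhl2, a LIM protein of stress fibres and heart muscle, had 40, 32 and 223 counts and was 7.12-fold higher in the dTF-cKO (5.07 to 10.2). Actg2, the enteric smooth muscle actin, had 42, 43 and 175 counts and was 5.32-fold higher (3.78 to 7.64). Acta2 had 14.4, 12.3 and 14.2 counts per count of Actg2, a ratio that hardly differed, and how reads common to the pair were assigned is not given. Myh9, the non-muscle myosin heavy chain, had a log2 difference of 1.27 and is named as the third of the higher genes (0.72 under the housekeeping scaling). Des and Myh11, which are also in the smooth muscle list, were lower, at 28.4-fold (14.2 to 66.4) and 4.50-fold (2.42 to 9.13). Des, desmin, also marks skeletal muscle, and so do the 2 genes lower in the cKO, Des at -1.77 and Tpm2 at -1.20. Actb, the common cytoplasmic actin, had ratios to the control of 0.954 (0.919 to 0.991) and 1.12 (1.08 to 1.16). Myh9 and Actb are outside the naming rule and were chosen after their values were seen. Set against the cKO, the dTF-cKO had 5 of the 19 higher and 3 lower, with a median of 0.32 (3 higher and 4 lower, median -0.17, under the housekeeping scaling and 16 higher and 1 lower under the stroma scaling).

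Genes that control myosin and actin assembly downstream of RhoA stayed under the 2-fold rule in the cKO and were partly higher in the dTF-cKO. Of 16 measured, 0 were higher and 0 lower in the cKO against the control; Actn4 and Cfl1, the most abundant by the naming rule, had log2 differences of 0.68 and -0.24, and Diap1, the formin Diaph1, lay just under the rule at 0.99. In the dTF-cKO 7 were higher and 1 lower (median 0.87). The housekeeping scaling gave 5 higher and 2 lower (median 0.32), and the stroma scaling 14 higher and 1 lower. Myl12b, a regulatory light chain of non-muscle myosin, was 4.50-fold higher (3.91 to 5.19), Actn4, an actin cross-linker, 3.77-fold (3.54 to 4.02), and Diap1 3.44-fold (2.88 to 4.13). Mylk, the kinase that phosphorylates the light chains in smooth muscle, went the other way, with 406, 253 and 33 counts, so that the dTF-cKO stood 9.63-fold below the control (6.75 to 14.2). Against the cKO, 4 were higher and 1 lower, with a median of 0.74 (1 higher and 1 lower under the housekeeping scaling and 15 higher and 1 lower under the stroma scaling).

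**Figure D5:**
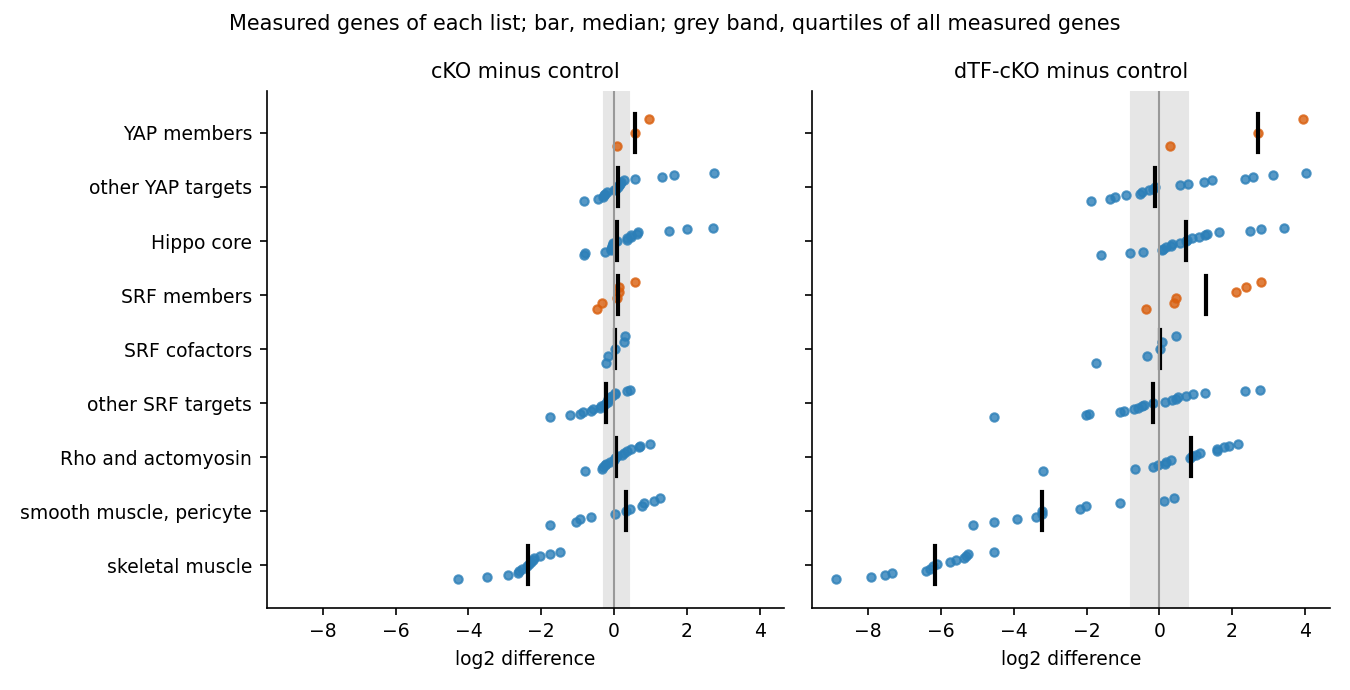
Log2 difference of each measured gene in 9 lists, with cKO minus control on the left and dTF-cKO minus control on the right. Orange points are the members, blue points the other lists, black bars list medians and the grey band the quartiles of all 12108 measured genes; the smooth muscle and pericyte median lies at -3.22 on the right while the YAP members reach 3.95 and the SRF members 2.78.

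Genes with the pattern nearest to the members were found over the 3 libraries as the smallest distance in the 2 log2 differences from the control, among 7649 eligible genes. Nearest to the median of the 3 measured YAP targets (0.57 and 2.71) were Ero1l, an oxidase of the endoplasmic reticulum, at a distance of 0.08, Nyap1 at 0.11 and Hmgcs1, an enzyme of cholesterol synthesis, at 0.13. The median of the YAP targets is the pair of values of Amotl2. Cyr61 (0.97 and 3.95) and Ctgf (0.09 and 0.30) lie far from it, so these genes resemble Amotl2 and not the group. Nearest to the median of the 6 SRF members (0.10 and 1.29) were Stx1a, Adnp2 and Vps37b, all within 0.03. That median falls in the gap between Tagln, Acta2 and Cnn1 and the other 3, so no member lies near it.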

How the data were processed

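RNA sequencing of polyA RNA gave 1 library for each of 3 genotypes. The authors deposited raw read counts per gene, whole numbers with no normalisation, per the file headers. The submitters' processing notes name mm10 as the genome. Aligner, counter, annotation and strand: not given in the sources used here.

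Counts were scaled with TMM factors (0.984, 1.06 and 0.963 for control, cKO and dTF-cKO) in edgeR 4.0.16. Log2 differences used a prior count of 2, while folds are ratios of scaled counts without it, with an exact conditional (Clopper-Pearson) 95% interval. Genes with a mean of at least 5 CPM were measured; 27 rows whose symbols had become dates were left out of calls but kept in totals (at most 0.180% of counts). A gene was called at a 2-fold difference, and 3 counts were the limit that a count of 0 allows (0.839, 1.06 and 1.07 CPM). No p-value was computed. Positions and exon lengths came from GENCODE vM21 of GRCm38, promoters from RefSeq. Ratios and calls were tested on simulated counts with counting error only, so variation between embryos and errors of scaling were not covered. The members and lists were chosen with earlier results of these data known. From each pathway list and comparison, up to 4 genes at least 2-fold different with an interval excluding 1 were named, or, failing 2 such genes, the 2 with the highest level; other names are said to be chosen afterwards. Alternatives were library totals, DESeq2 1.42.0 size factors, totals without the 33 genes that are among the 20 most abundant of any library, the stroma and housekeeping scalings, prior counts, floors and size rules.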

Additional observations from a re-analysis of the deposited data

How the results depend on the processing

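The counts of members at least 2-fold lower were 0 in the 3 comparisons under all alternatives run. For the cKO against the control the count of higher members was 0, and 1 with library totals or a 1.5-fold rule, both times Cyr61. The median of the members in that comparison was 0.13 and became -0.22 under the housekeeping scaling. Under the stroma scaling, 9 members were higher in the dTF-cKO against the control and 9 against the cKO, with medians of 3.66 and 3.32. Most measured genes were higher too, 8415 of 12108 against the control and 9000 of 12108 against the cKO. That scaling called 92.1% of all called genes higher against the control and 94.5% against the cKO, where the TMM factors gave 48.3% and 41.4%. The housekeeping scaling gave 24.6% and 17.2% for the same comparisons and 37.0% in place of 58.8% for the cKO against the control; leaving the most abundant genes out of the totals gave 31.4% and 24.95%. Over all genes, 1170 were higher and 821 lower in the cKO against the control; without an expression floor these counts were 2146 and 2292, with a floor of 20 CPM 674 and 325, with a 1.5-fold rule 2191 and 1601 and with a 3-fold rule 691 and 381. For the dTF-cKO against the control, 2359 and 2528 became 3389 and 4616, 1740 and 1227, 3786 and 3579, and 1252 and 1585. Against the cKO, 1758 and 2488 became 3072 and 4532, 1203 and 1168, 3233 and 3688, and 710 and 1516. With no expression floor, which adds Ankrd1, the median of the members in the dTF-cKO against the control was 1.29 in place of 2.12. Of the named genes called at 2-fold, those that changed sign under the stroma scaling were Ctnnb1 (0.33), Igfbp3 (0.20) and Dock5 (0.31) in the dTF-cKO against the control, and in the dTF-cKO against the cKO Ccdc80 (0.16), Rbms3 (0.60), Elk3 (0.20), Twist2 (0.63), Fosb (0.59) and Egr2 (0.28). Values under 2-fold turned as well, Tpm1 against the control to 1.18 among them. At a floor of 20 CPM, which leaves out Cnn1, 4 members were higher in each comparison of the dTF-cKO. The cause of these shifts is the construction of that scaling, which adds 1.54 or 1.765 to every log2 difference of the 2 comparisons. The alternatives for the other lists and genes were applied after the data were seen. No paired analysis was possible because each group has 1 library, so leaving out a library was not possible either. Depth limits Ankrd1, at 3 counts or fewer, and Cnn1, at 12 counts in the control.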

Other observations

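Cyr61, Ctgf and Srf also belong to the early response to serum, so 8 genes of that response were looked up after the count tables had been opened. In the order control, cKO and dTF-cKO, Fos had 45, 247 and 657 counts, 6.94-fold (5.04 to 9.76) and 18.6-fold (13.8 to 25.8) above the control. Junb had 50, 146 and 606 counts, 3.69-fold (2.66 to 5.20) and 15.48-fold (11.6 to 21.1) above it. Egr1, an early SRF target, had 112, 237 and 336 counts, 2.68-fold (2.13 to 3.38) and 3.83-fold (3.09 to 4.79) above it. Fosb had 3, 32 and 13 counts.

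Atf3, a gene of the stress response, had 14, 11 and 251 counts, so it stood apart in the dTF-cKO alone, as Tagln and Acta2 did; its ratio to the control was 0.994 in the cKO (0.408 to 2.36) and 22.9 in the dTF-cKO (13.4 to 42.5). Ier2 had 106, 158 and 120 counts, Myc 323, 215 and 244, and Egr2 5, 9 and 2. Counts of Cyr61, Fos, Junb and Egr1 were lowest in the control and highest in the dTF-cKO. Fosb, Ier2 and Egr2 counts were highest in the cKO, Myc was highest in the control and Srf was lowest in the cKO. With scaling, Myc in the dTF-cKO was within counting error of the control, at 0.965 (0.814 to 1.14). So was Egr2 in the cKO, at 2.28 (0.685 to 8.65). The part of the early response in the Cyr61 level was not tested.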
